A study of Bubalus bubalis with 8 samples.

Results

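The genes described here are PFKFB3, HK2, SLC2A1, ALDOA, GAPDH, TPI1, PGK1, ENO1 and LDHA, chosen by name as genes of glucose uptake and glycolysis. Of these 9 genes, 8 had at least 1 probe of that gene name on the array, with 32 of its 43653 probes. No probe carried the name HK2, and 3 probes that the array's annotation describes as hexokinase 2 under another name are given separately and stand in no count of the members. The cells were mammary epithelial cells (MECs) of riverine buffalo (Bubalus bubalis), grown from mammary gland of 1 adult animal, labelled female, and used after repeated passage. Unstressed cells (CTR) stayed at 37 °C. Stressed cells were held for 1 h at 42 °C and returned to 37 °C, and were harvested after recovery of 30 min or of 2, 4, 8, 12, 16 and 24 h. The question was how expression adapts over that time. Each of the 8 conditions had 1 array with 1 colour (Cy3), designed for cattle genes, so differences could not be set against a spread between replicates, and no p-value was computed.

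Glucose enters the cell through facilitative carriers such as SLC2A1 (GLUT1), the main glucose carrier of many epithelia, and is trapped by hexokinases. Glycolysis then splits it and passes the carbon to pyruvate, which lactate dehydrogenase can turn into lactate. PFKFB3 makes fructose 2,6-bisphosphate, a strong activator of phosphofructokinase, and so sets the pace of the upper pathway. In mammary epithelium glucose is also the precursor of lactose.

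A level is the log2 intensity of a probe minus the 75th percentile of its array, and a change is the difference of that level from CTR. Values given in time order run from 30 min to 24 h. The error of a change is the spread between repeat spots of bright probes within the arrays, divided for a gene by the root of its number of probes. For 1 probe it was 0.30 (log2) at 30 min, where the spread on the CTR array stood in for both, 0.86 at 16 h, and from 0.35 to 0.39 at the other time points. It covers no differences between cultures, between arrays or between the probes of a gene. The standard deviation between probes was 0.72 for PGK1 at 30 min and 0.76 for TPI1 at 2 h, where the errors were 0.17 and 0.21. For ENO1 at 24 h it was 0.01, where the error was 0.23. The repeat spots of the 30 min array itself spread by 2.70 (log2) in its scanner intensities, from which its levels were not taken. The errors given at 30 min may therefore be too small. CTR shared a slide with the arrays of 8, 12 and 24 h, and the other time points shared a second slide, so for these heat stress and slide cannot be told apart against CTR.

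A region of the CTR array, 6.51% of its positions, read dark, with local medians down to -3.88 (log2) against the other arrays, and it held the PFKFB3 probe A_73_118246. Of the 32 member probes, 28 were well above background on all 8 arrays, the 3 probes of PFKFB3 were not so in CTR, and 7 were saturated on at least 1 array, 4 of them in CTR.

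The 60-base probes below are among those the results turn on, and their sequence holds an open reading frame. PFKFB3 and PGK1 were the members furthest above and below CTR at 30 min. The GAPDH probes fall in a set of 3 and a pair that overlap and differ in sequence, and capitals mark the bases that differ within the overlap (in the set of 3, the base that the others do not share). Coordinates are those of the array's annotation on the cattle build HGSC Btau_3.1. Exon and UTR limits were not analysed here.
PFKFB3, A_73_P073546, chr13:16122764-16122823, minus strand: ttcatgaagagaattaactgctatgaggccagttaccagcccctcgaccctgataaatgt
PGK1, A_73_P352526, unplaced: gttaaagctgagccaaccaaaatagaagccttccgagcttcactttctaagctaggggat
PGK1, A_73_P050408, unplaced: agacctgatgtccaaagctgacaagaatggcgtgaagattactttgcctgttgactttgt
PGK1, A_73_P399430, unplaced: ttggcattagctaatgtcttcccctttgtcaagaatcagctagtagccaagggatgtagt
GAPDH, A_73_P195967, chr5:10854821-10854972, minus strand: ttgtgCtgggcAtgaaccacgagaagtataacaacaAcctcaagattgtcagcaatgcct
GAPDH, A_73_P082516, chr5:10854824-10854974, minus strand: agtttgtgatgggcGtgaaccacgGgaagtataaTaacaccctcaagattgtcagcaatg
GAPDH, A_73_P108926, chr5:10854818-10854969, minus strand: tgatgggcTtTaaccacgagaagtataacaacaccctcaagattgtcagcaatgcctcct
GAPDH, A_73_P089951, chr5:10853755-10853916, minus strand: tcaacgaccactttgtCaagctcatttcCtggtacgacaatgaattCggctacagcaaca
GAPDH, A_73_P060776, chr5:10853739-10853899, minus strand: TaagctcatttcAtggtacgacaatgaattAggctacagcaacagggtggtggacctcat

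PFKFB3 was the member that moved most, high at 30 min and 2 h and lower from 4 h on. Its probe A_73_P073546, shown above, had a level of 3.80 at 30 min and 3.39 at 2 h, and in CTR and at every later time point it was not well above background. Against the lowest signal well above background in CTR, PFKFB3 was at least 20.9-fold higher at 30 min and at least 15.8-fold higher at 2 h. These 2 were the only values of a member gene past 3-fold, and both rest on this 1 probe. Of all genes with a value or bound, 8.26% at 30 min and 6.69% at 2 h were likewise at least 3-fold higher. No member was at the other time points, where the share of all genes was, in time order, 3.3%, 0.5%, 0.193%, 6.34% and 0.0847%. From 4 h on no fold of PFKFB3 can be given, since this probe was near background on both arrays. The probe A_73_P290566 had a level of 0.16 at 2 h, at least 1.67-fold above CTR, and was not well above background on the other arrays.

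The brightest PFKFB3 probe, A_73_118246 (chr13:16109670-16109729), lay where CTR was dark, and so it was compared between heat-stressed arrays only. Its levels in time order were 6.00, 5.19, 2.14, 1.73, 1.58, 3.19 and 1.61. The highest were again those at 30 min and 2 h, and all others except that at 16 h lay within 0.56 of each other. Within the second slide the level at 2 h was 8.25-fold that at 4 h and 4.00-fold that at 16 h, and the level at 30 min was 7.03-fold that at 16 h. The level at 16 h was 2.06-fold that at 4 h, a difference of 1.04 (log2) against an error of 0.88.

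The sum of leukocyte markers was highest at 30 min and 2 h, as PFKFB3 was, whereas the sum of fibroblast markers was highest in CTR. The summed level of 6 leukocyte markers, in multiples of the 75th percentile, was 10.7 in CTR and, in time order, 198, 94.8, 18.8, 8.53, 8.41, 25.5 and 10.0. All 6 were detected at 30 min, 2 h and 16 h, whereas CD74, CD14, CD68 and CD3E were not detected in CTR. The markers detected in CTR, PTPRC and LYZ, did not follow the sum at all times. PTPRC changed by 1.44, 1.38, 1.68 and 1.65 at 30 min, 2 h, 4 h and 16 h. LYZ changed by 0.92 and 0.44 at 30 min and 2 h, and by -1.93 and -1.44 at 4 h and 16 h. Of 8 epithelial markers 7 were detected in CTR, the keratin KRT18 being the exception, and 7 or 8 on each stressed array, with a summed level of 618 in CTR, 367 at 30 min and 951 at 16 h. The median change of the 7 measured on both arrays was -1.30 at 30 min and -0.41 at 16 h. Of 8 fibroblast markers 4 were detected in CTR, and from 1 at 30 min to 7 at 16 h on the stressed arrays, with summed levels from 57.1 at 4 h to 186 in CTR. Of 4 endothelial markers none was detected in CTR and at most 2 on any array. The part of these cells in the level of PFKFB3 was not tested. In RNA of whole cultures, a different share of cells and a different amount of RNA per cell cannot be told apart.

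**Figure D1:**
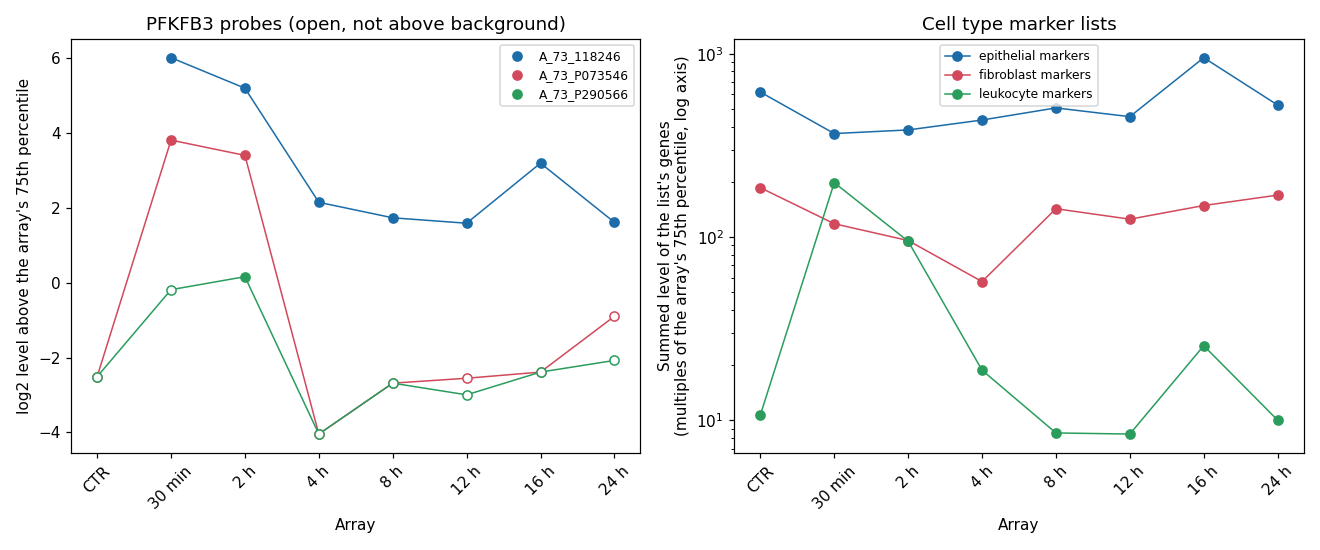
Left, log2 level of the 3 PFKFB3 probes on each array, without the CTR spot in the dark region; filled points were well above background. Right, summed level of the epithelial, fibroblast and leukocyte marker lists, on a log axis. PFKFB3 and the leukocyte sum were highest at 30 min and 2 h, and the brightest PFKFB3 probe and the leukocyte sum were higher at 16 h than at 12 h and 24 h.

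Hexokinase 2 is the inducible enzyme that traps glucose as glucose 6-phosphate. Of the 3 probes described as hexokinase 2, 2 were measured on both arrays at the first 3 times and were higher than CTR. The 1 probe that gave a value at 16 h was higher there too. A_73_P082146 had a level of 1.15 in CTR and, in time order, 3.18, 2.90, 2.94, 1.46, 1.23, 2.48 and 0.79. The 4 highest levels were those of the second slide, and those of the first slide lay between 0.79 and 1.46. A_73_107711 had a level of 1.41 in CTR, then 2.57, 2.35, 2.26, 1.03 and 0.24 up to 12 h and 0.36 at 24 h, and lay in a dark region at 16 h. It was above CTR at the first 3 times, and at 12 h and 24 h it was below CTR by more than its error. Over both probes the change at the first 3 times was 1.59 ± 0.21, 1.35 ± 0.26 and 1.32 ± 0.25, and these signs were the same under all 6 other scalings and centrings. Against 16 h on the same slide, A_73_P082146 was higher by 0.70, 0.43 and 0.46 at those times, each within its error of 0.86 to 0.88. The third probe, A_73_P082152, was well above background at 2 h and 4 h alone, with levels of -0.24 and -0.57. These were above CTR by at least 0.34 and 0.02, bounds that by their rule lie above CTR. The annotation places this probe on the minus strand of chromosome 11 and the other 2 on its plus strand.

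SLC2A1 was lower than CTR at 30 min and 2 h, and again at 8 h and 12 h. Its brightest probe, A_73_104917, had a level of 5.93 in CTR and, in time order, 5.11, 5.23, 5.96, 5.35, 5.34, 6.13 and 5.83. A_73_P033201 had a level of 2.54 in CTR, then 1.12, 1.13, 1.97, 2.01, 2.09, 2.06 and 2.26. A_73_P346251 had a level of 1.31 in CTR, then 0.49, 0.97, 1.64, 0.16, 0.98, 1.21 and 1.36. All 3 probes were below CTR at 30 min, at 2 h, and at 8 h and 12 h on the slide of CTR. Bright probes around A_73_104917 read 0.19 (log2) in CTR, -0.46 at 8 h and -0.19 at 12 h against the other arrays. The part of that in its changes was not tested. Around A_73_P033201 and A_73_P346251 they read 0.30 and 0.13 in CTR and 0.22 and -0.04 at 8 h. The mean change was -1.02 ± 0.17 at 30 min and -0.81 ± 0.21 at 2 h, then -0.75 ± 0.22 at 8 h and -0.45 ± 0.20 at 12 h, and none of these signs turned under the 6 other scalings and centrings. At the remaining times the change was within its error, with -0.07 ± 0.20 at 4 h. Against 16 h on the same slide SLC2A1 differed by -0.89 at 30 min and -0.69 at 2 h, where 1 probe has an error of 0.86 to 0.88.

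The enzymes ALDOA, TPI1, GAPDH, PGK1, ENO1 and LDHA were bright on all arrays and lay modestly below CTR or near it. Each of the 6 was below CTR at 30 min, from -1.41 (PGK1) to -0.47 (LDHA), and at 2 h, from -1.30 (TPI1) to -0.53 (LDHA). Without the TPI1 probe A_73_106429, TPI1 was at -0.87 at 2 h, and PGK1 at -1.25 was the lowest. At 2 h ENO1 and LDHA turned above CTR when arrays were scaled by their median, and LDHA also with normexp background correction. The median change of the members with a value or bound was, in time order, -0.68, -0.79, -0.53, -0.46, -0.41, -0.30 and -0.32. Over all probes measured on both arrays it was -0.20, -0.40, -0.16, -0.12, -0.28, 0.02 and -0.11. The members' median was thus the lower at each of the 7 times, and it turned above CTR at 4 h under both scaling by the median (0.56) and normexp (0.17), and at 12 h under normexp (0.0442). Scaling by the median raised all genes by 0.70 at 2 h and 1.09 at 4 h.

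No member gene was at least 3-fold lower at any time, where the share of all genes was, in time order, 4.55%, 9.48%, 6.14%, 0.146%, 0.506%, 3.53% and 0.381%. At least 2-fold lower were PGK1 and SLC2A1 at 30 min and PGK1 and TPI1 at 2 h, TPI1 only with A_73_106429, which is 2 of 8 members at each time against 13.9% and 20.5% of all genes. No member was 2-fold lower later, against 13.6%, 2.8%, 5.78%, 10.8% and 2.94% of all genes. Single probes reached 3-fold lower for 3 of 25 member probes at 30 min and 3 of 30 at 2 h, and for 1 of 25 at 4 h and 1 of 26 at 16 h, against 5%, 9.66%, 6.53% and 4.42% of all probes. At 8, 12 and 24 h none did, against 0.192%, 0.505% and 0.505%. Of the 3 at 2 h, A_73_106429 of TPI1 and A_73_P251276 of ENO1 lay where bright probes read -0.54 and -0.50 (log2) against the other arrays. With 7 or 8 members, none of these counts sets the members apart from the whole array.

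**Figure D2:**
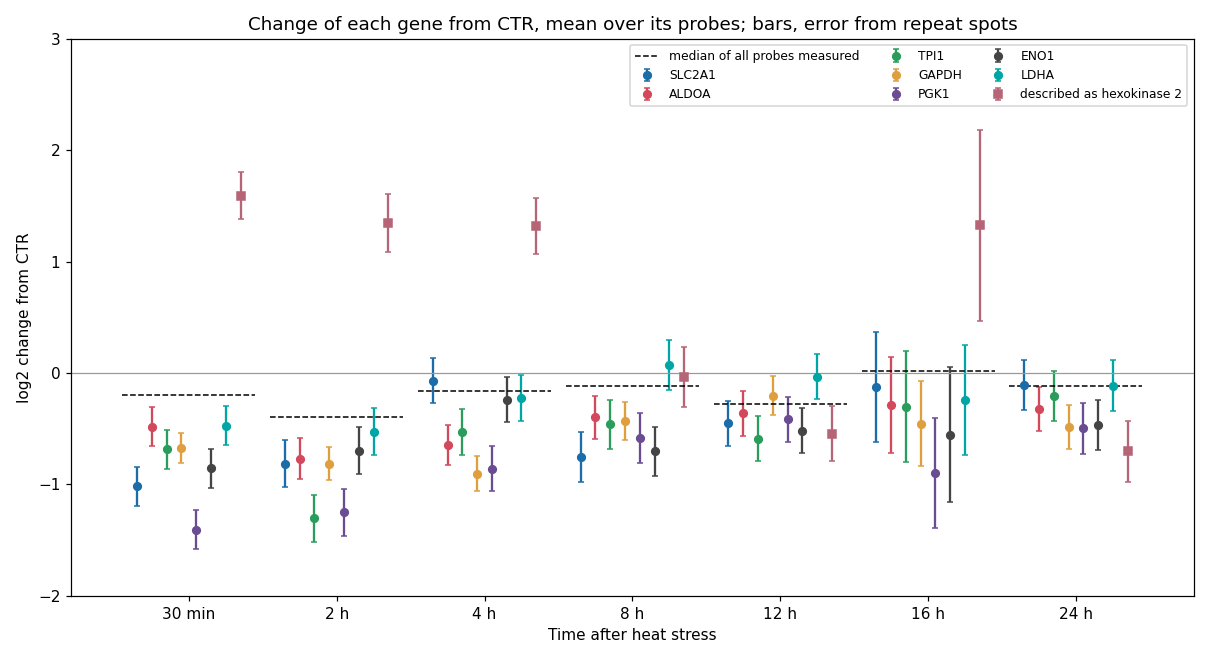
Log2 change of each gene from CTR by time after heat stress, as the mean over its measured probes, with error bars from repeat spots and dashed lines for the median of all probes measured. PGK1 was lowest at 30 min (-1.41) and TPI1 at 2 h (-1.30), and the value of the probes described as hexokinase 2 stood above CTR at 30 min, 2 h and 4 h on 2 probes and at 16 h on 1 probe. PFKFB3, known only as bounds, is not drawn.

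ALDOA, the aldolase of most tissues, had 4 probes, all below CTR at 2 h and 4 h. A_73_P278751 had a level of 5.80 in CTR and, in time order, 5.02, 4.69, 4.81, 5.49, 5.50, 5.06 and 5.54. Its 4 lowest levels were those of the second slide. A_73_P452731 had a level of 6.11 in CTR, then 5.73, 5.50, 5.68, 5.50, 5.51, 6.26 and 5.52, so that 16 h was its highest array. Bright probes around its spot read 0.25 (log2) in CTR, 0.35 at 16 h and -0.96 at 24 h against the other arrays. The gene's mean change was -0.48 ± 0.17, -0.77 ± 0.18 and -0.64 ± 0.18 at the first 3 times and between -0.28 and -0.40 later. At 4 h it turned above CTR under scaling by the median and normexp, and at 12 h under normexp.

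TPI1, which interconverts the triose phosphates, was lowest at 2 h, and 1 probe set that value. That probe, A_73_106429, had a level of 7.62 in CTR and, in time order, 6.99, 5.44, 7.23, 7.46, 7.15, 7.52 and 7.47. Only the 2 h array stood apart, with a change of -2.18, while A_73_P040646 and A_73_P281926 changed by -0.78 and -0.95 there. Bright probes around the 2 h spot read -0.54 (log2) against the other arrays, and the part of that in its level was not tested. A_73_P281926 had a level of 5.11 in CTR, then 4.13, 4.16, 4.40, 4.55, 4.51, 4.76 and 4.91. A_73_P040646 had a level of 5.96 in CTR and from 5.18 to 5.68 on the other arrays. All 3 probes were highest in CTR, and the gene's change at 4 h, -0.53 ± 0.20, turned above CTR under scaling by the median and normexp.

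TPI1 also had the widest range, 1.10 (log2), over its 7 changes among the members measured at each time, ahead of PGK1 (0.991). That rank rests on the 2 h spot of A_73_106429: without this probe the range of TPI1 was 0.627. Over 4246 other named genes, the 5 with the smallest root mean square difference from those changes were TRAFD1 (0.115), PDZD11 (0.124), HTRA1 (0.131), TTF2 (0.148) and CLPTM1L (0.157). These likenesses rest on the same spot, and on 7 changes that share 1 CTR array.

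GAPDH, which oxidises glyceraldehyde 3-phosphate and often serves as a reference gene, had 8 probes that did not move as one. Of the overlapping set of 3 shown above, A_73_P195967 had a level of 2.66 in CTR, then 2.19, 2.00, 1.34, 2.59 and 2.62 up to 12 h and 1.90 at 24 h. At 16 h it was not well above background and at least 7.29-fold below CTR. A_73_P082516 had a level of 4.34 in CTR and, in time order, 4.40, 4.35, 3.67, 4.16, 4.36, 3.59 and 3.91. A_73_P108926 had a level of 5.12 in CTR, then 4.21, 4.03, 4.15, 4.43, 4.83, 4.39 and 4.96. The changes of these 3 probes at 2 h were -0.66, 0.01 and -1.08, in the order given. Around the CTR spots of the first 2, bright probes read -0.63 and -0.45 (log2) against the other arrays, short of the -1 that marks a dark region here.

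Of the overlapping pair, A_73_P060776 fell from 7.89 in CTR to 6.54, 6.13 and 6.50 at the first 3 times, while A_73_P089951 read 8.05 in CTR and 7.40 at 2 h and was saturated at 30 min and 4 h. At 2 h their changes were -1.76 and -0.65. Around their CTR spots bright probes read 0.19 and -0.40 (log2) against the other arrays. A_73_P089951 was also near the level of the saturated probe A_73_100172, which read 8.24 in CTR and 7.61 at 2 h. A_73_P099681 had a level of 5.26 in CTR and, in time order, 4.57, 4.52, 5.09, 4.67, 4.76, 5.32 and 4.68. A_73_100172 and A_73_P475903 were saturated in CTR and on most other arrays, and the annotation places the latter on chromosome 1 and the other probes on chromosome 5. The mean change over the probes measured was -0.67 ± 0.13, -0.81 ± 0.15 and -0.90 ± 0.16 at the first 3 times and between -0.20 and -0.48 later. It turned to 0.19 at 4 h under scaling by the median, and at 12 h it turned above CTR under 4 of 6 scalings and centrings. Near-identical copies of GAPDH may share its signal, so the values of single probes are uncertain.

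PGK1, which makes the first ATP of the pathway, was the furthest below CTR of these 6 enzymes at 30 min. A_73_P352526 had a level of 4.11 in CTR and, in time order, 2.10, 2.55, 2.50, 3.03, 3.29, 2.72 and 3.19. A_73_P050408 had a level of 5.36 in CTR, then 3.76, 3.98, 4.52, 4.51, 4.84, 4.34 and 4.89. For both CTR was the highest array, and the first was 4.03-fold lower at 30 min. A_73_P399430 had a level of 6.24 in CTR, then 5.64, 5.43, 6.13, 6.43, 6.34, 5.95 and 6.15. This probe was below CTR at 30 min and 2 h and within 0.29 of it from 4 h on, so the probes of PGK1 disagree at the later times. Bright probes around its CTR spot read -0.41 (log2) against the other arrays, where those around the other 2 PGK1 probes read 0.12 and 0.13. The gene's mean change was -1.41 ± 0.17 at 30 min and -1.25 ± 0.21 at 2 h, with -0.90 ± 0.50 at 16 h and between -0.86 and -0.41 at the remaining times. It turned above CTR at 4 h under scaling by the median and at 12 h under normexp. Against 16 h on the same slide it was -0.51 at 30 min and -0.35 at 2 h, where 1 probe has an error of 0.86 to 0.88. The median of all probes in these comparisons was -0.23 at 30 min and -0.37 at 2 h, so PGK1 was not below the whole array at 2 h.

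ENO1, the enolase of most tissues, had 5 probes, and its brightest 2 were saturated in CTR. Of these A_73_P251276 was at least 3.24-fold lower than CTR at 30 min and at least 3.42-fold lower 2 h after stress. Bright probes around its spot read -0.06 (log2) at 30 min and -0.50 at 2 h against the other arrays, and the part of that in its level was not tested. A_73_P051406 had a level of 4.31 in CTR and, in time order, 2.74, 3.11, 3.63, 3.69, 3.96, 3.38 and 3.83. A_73_P456551 had a level of 3.57 in CTR, then 2.87, 2.83, 3.31, 2.88, 3.06, 3.39 and 3.1. CTR was the highest array for both. A_73_P394271, which overlaps the last, changed by -0.30, -0.15 and 0.22 at the first 3 times. The mean over the unsaturated probes at the first 3 times was -0.86 ± 0.17, -0.70 ± 0.21 and -0.24 ± 0.20, and at 4 h it turned above CTR under scaling by the median and normexp.

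LDHA, the muscle-type subunit of lactate dehydrogenase, lay below CTR at 30 min and 2 h. A_73_P269751 had a level of 6.63 in CTR and, in time order, 6.50, 6.43, 7.0, 6.92, 6.64, 7.09 and 6.79. Bright probes around its CTR spot read -0.63 (log2) against the other arrays. A_73_119375 had a level of 6.06 in CTR, then 5.41, 5.27, 5.35, 6.26, 6.02, 5.14 and 5.77. The 4 lowest levels of this probe were those of the second slide. A_73_P362966 had a level of 4.37 in CTR, then 3.73, 3.79, 4.04, 4.10, 4.30, 4.09 and 4.16, below CTR at all 7 times. The gene's mean change was -0.47 ± 0.17 at 30 min and -0.53 ± 0.21 at 2 h, and from 8 h on it lay within its error of CTR. Without A_73_P269751 it was -0.64 at 30 min and -0.69 at 2 h.

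**Figure D3:**
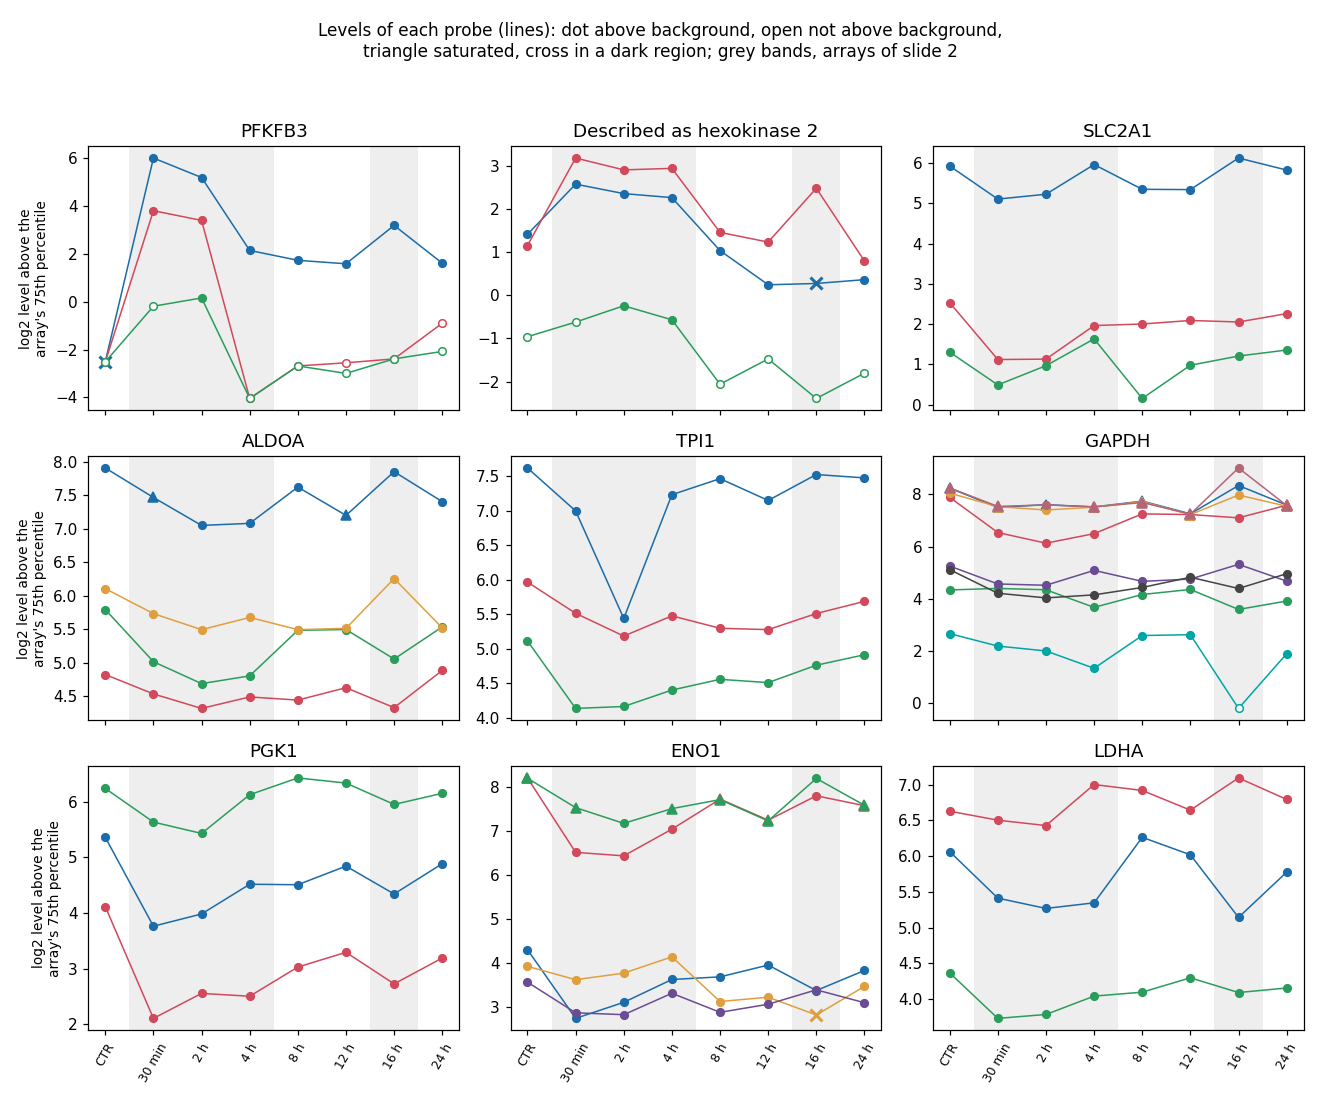
Log2 level of each member probe above the 75th percentile of its array, by array in time order, with 1 line per probe. Open points were not well above background, triangles were saturated, crosses lay in a dark region, and grey bands mark the second slide. The brighter 2 probes of PFKFB3 and of those described as hexokinase 2 were highest at 30 min, while all 3 TPI1 probes were highest in CTR.

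On the first slide, which holds CTR with 8, 12 and 24 h, the 7 members other than PFKFB3 and HK2 lay between -0.75 (SLC2A1 at 8 h) and 0.07 (LDHA at 8 h). At 24 h SLC2A1, TPI1 and LDHA were within their error of CTR, and ALDOA, GAPDH, PGK1 and ENO1 lay between -0.50 and -0.32. The ALDOA value includes A_73_P452731, its lowest probe there (-0.58), around which bright probes read -0.96 (log2) at 24 h. Within the second slide, against 16 h in place of CTR, the TPI1 probe A_73_106429 changed by -2.09 at 2 h, with local medians of -0.54 at 2 h and 0.45 at 16 h, and the other 2 TPI1 probes by -0.33 and -0.60. All probes of the array had a median of -0.37 in that comparison.

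Other enzymes of glycolysis gave medians close to those of the members, -0.59 at 30 min and -0.69 at 2 h over 9 genes measured. ALDOC, an aldolase best known from brain, was higher by 3.25, 2.21 and 1.48 at the first 3 times on 1 probe, where ALDOA was lower. PKM2, the array's name for the pyruvate kinase of most tissues, changed by -1.77 at 30 min, -1.66 at 2 h and -0.11 at 24 h. Of these 9 genes 1 was at least 3-fold higher and 1 at least 3-fold lower at each of the first 2 times, and none was later. Of all genes, 8.26% and 6.69% were at least 3-fold higher at these 2 times and 4.55% and 9.48% at least 3-fold lower. The shares at the later times are given above. With 9 genes, these counts do not set the list apart from the whole array. HK1, the housekeeping hexokinase, named after its values were seen, was higher by 0.61 to 1.14 at all 7 times on 1 probe. BPGM, which makes 2,3-bisphosphoglycerate, changed by -1.81 at 30 min and -2.25 at 16 h.

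Among 12 other carriers of glucose and lactate and their partners, 5 were detected in CTR. SLC2A5, a fructose carrier, changed by -3.07 at 2 h and by -2.41 and -2.51 at 4 h and 16 h, where SLC2A3 (GLUT3) changed by -2.16 and -2.70. On the first slide SLC2A5 lay between -0.72 and 0.08 and SLC2A3 between -0.42 and -0.21. At 30 min SLC2A3 was above CTR by 0.75. BSG, the chaperone of lactate carriers, changed by -1.61 at 2 h, and SLC2A8 was higher by 1.89 at 30 min. SLC16A3 (MCT4), a lactate exporter named after its values were seen, was not detected in CTR and was at least 3.92-fold higher at 30 min and at least 3.94-fold higher at 2 h.

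Genes that route pyruvate and glucose carbon elsewhere differed among themselves. PDK1, which inhibits pyruvate dehydrogenase, changed by -1.80 at 2 h, whereas its relative PDK4, named after its values were seen and not detected in CTR, was at least 10.7-fold higher at 30 min and at least 24.6-fold higher at 16 h. PDHB, a subunit of pyruvate dehydrogenase, changed by -1.68 at 16 h, and BRP44, now called MPC2, a part of the mitochondrial pyruvate carrier, was higher by 1.61. In the pentose phosphate pathway the median of 4 genes lay between -0.29 and 0.15 at all times, and PGD was higher by 1.62 at 30 min. PCK2, of gluconeogenesis, was higher by 1.64 at 30 min. GYG1, which primes glycogen, was higher by 2.20 at 30 min and 1.92 at 2 h.

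For lactose synthesis the median of 4 genes was highest at 4 h (0.50) and 16 h (0.60) and lowest at 12 h (-0.47). LALBA, the regulatory subunit of lactose synthase, named after its values were seen and not detected in CTR, was at least 207-fold higher at 4 h and at least 360-fold higher at 16 h, both on the second slide. Of the hypoxia-inducible factor genes and targets outside glycolysis, VEGFA was higher by 1.74 at 30 min and at 2 h, and DDIT4 by 1.97 at 2 h. In that list 2 of 9 genes with a value at 30 min and 2 of 11 at 2 h were at least 3-fold higher, beside the 8.26% and 6.69% of all genes given above. At 2 h 1 gene of the list was at least 3-fold lower, P4HA1, a collagen hydroxylase named after its values were seen, at least 4.23-fold below CTR. Of all genes 9.48% were at least 3-fold lower at that time. As a check of the treatment, 11 heat shock genes had a median change of 0.50 at 30 min, 0.15 at 2 h and 1.52 at 8 h over the 8 or 9 measured on both arrays. Among them HSPA1A changed by 2.40 at 30 min, 4.51 at 8 h and -1.12 at 24 h. HSPD1, named after its values were seen and under 3-fold at all times, changed by -0.62, 0.50 and -0.85 at these 3 times.

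**Figure D4:**
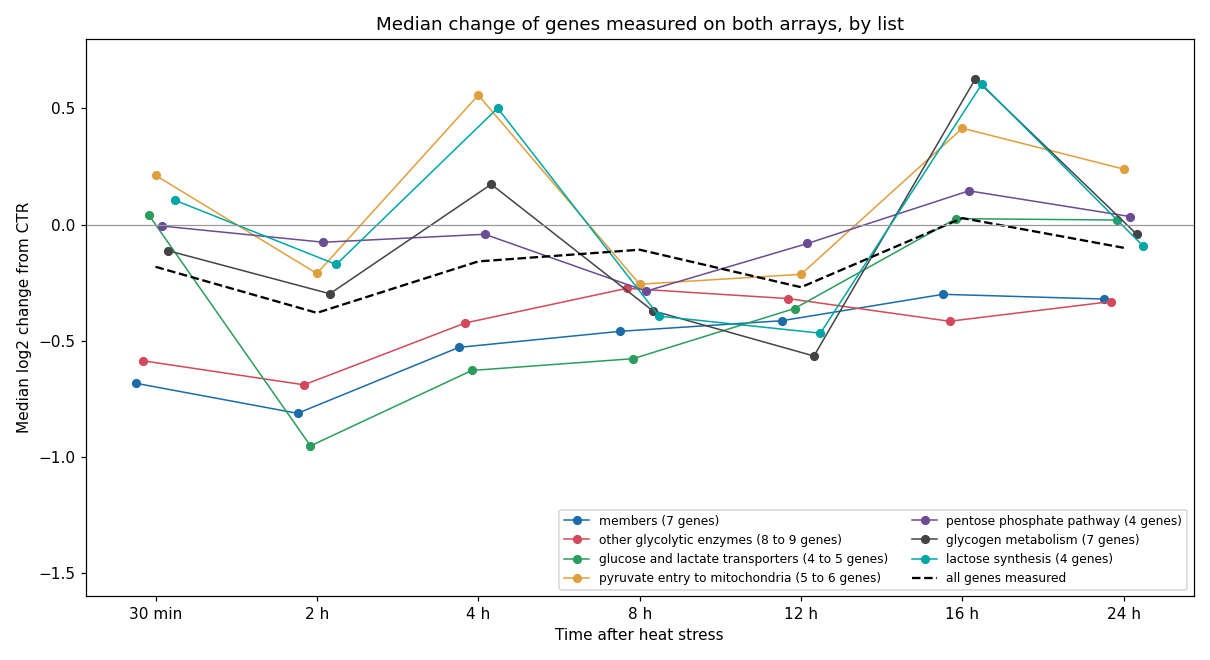
Median log2 change from CTR of the genes measured on both arrays, for the members, 6 other lists and all genes measured, by time after heat stress. The members and the other glycolytic enzymes lay below all genes at every time, with medians of -0.81 (PFKFB3, a bound, left out) and -0.69 at 2 h.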

How the data were processed

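The authors deposited, per the file headers, one-colour intensity values of each spot from Feature Extraction 9.5.3.1 and, in a separate table, log2 values shifted to the 75th percentile and centred on each probe's median. From the intensities, outlier-marked spots were left out, log2 was taken and each array's 75th percentile was subtracted. The 30 min scanner intensities depart from the deposited log2 values by a median of -0.89, so 30 min was taken from the latter. A gene's change is the mean over probes outside dark regions (a median of bright probes within 10 spots of -1 or lower) that were well above background and unsaturated on both arrays, and otherwise a bound from its best probe. At 30 min a probe counted as detected above the highest of the detection limits elsewhere, 0.24, and as saturated within 0.119 of the top level. Members and lists were chosen with earlier results of these data known. Named from each list were at most 4 genes measured at 3-fold or more, largest first, and others are marked. The steps that find dark regions and compute gene changes were tested on simulated data without saturated spots. The steps particular to 30 min were not. Normexp (offset 50) and quantile normalization used limma 3.58.1 in R 4.3.3, and all else Python 3.11.15. With 1 array per condition, precision is limited by their number.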

Additional observations from a re-analysis of the deposited data

How the results depend on the processing

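No paired analysis was possible because each condition had 1 array. The median change of the members moved by more than the error under these alternatives. With the 30 min scanner intensities it was 1.82 at 30 min. Under scaling by the median of each array it was -0.0873 at 2 h and 0.56 at 4 h, with -0.76 at 24 h. Under normexp it was -0.0906 at 2 h and 0.17 at 4 h, with 0.0442 at 12 h. Scaling by the median shifted all genes by -0.43 at 24 h, and normexp shifted them by 0.56, 0.53 and 0.38 at those 3 times. With the best probe only it was -0.11 at 4 h. Relative to the median change of bright probes, an alternative chosen after seeing the data, it was -0.39 at 2 h. The number of values at least 3-fold higher was 2, and it became 5 with the 30 min scanner intensities, 0 with only probes well above background on both arrays, and 7 with dark regions kept. The number at least 3-fold lower was 0, and it became 3 with the scanner intensities, 1 with the best probe only, and 4 at a 2-fold cutoff. Saturated spots kept, the probes described as hexokinase 2 included, and TPI1, PGK1 and LDHA without each of their probes in turn were also chosen after seeing the data. Of 715 values of single genes under an alternative, 622 moved by less than the error and 93 by more, and 665 kept their sign. With the 30 min scanner intensities 4 of 8 kept it. The total pools alternatives that could move little, as keeping outlier-marked spots (at most 0.0123), with others that moved many values. Scaling by the median moved 25 of 58 values by more than the error, normexp 22 of 58, and the 30 min scanner intensities 8 of 8. No value past 3-fold changed sign, but few values were past 3-fold, and those of PFKFB3 were bounds that by their rule lie above CTR. The cause of these moves was not tested.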
